A study of Mus musculus with 15 samples.

Results

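Oxidative phosphorylation is carried out by 5 protein complexes of the inner mitochondrial membrane, and the genes described here carry the names of their subunits. Members were taken by name: nuclear genes for NADH dehydrogenase (complex I), succinate dehydrogenase (complex II), the cytochrome bc1 complex (complex III), cytochrome c oxidase (complex IV) and ATP synthase (complex V), and the mitochondrially encoded Nd, Cytb, Co and Atp genes. The rule took 93 genes, 80 of the nuclear genome and 13 of the mitochondrial genome, of the 20723 gene names in the series. Complex I had 37 nuclear members, complex II 4, complex III 8, complex IV 14 and complex V 17. These counts include Ndufb4c in complex I and Cox6c2 in complex IV, which are annotated as processed pseudogenes. Of the 13 mitochondrial genes 7 belonged to complex I, 1 to complex III, 3 to complex IV and 2 to complex V. Each of the 4 data tables listed 92 or 93 members, and 91 or 92 of them reached 10 in 3 libraries or more, the filter used for testing. Cox8b and Ndufa4l2, isoforms of other tissues, match the naming rule but were listed in none of the 4 data tables. The member that did not pass was Cox6a2, the muscle isoform of a complex IV subunit, with values of 0 to 13.7. The passing member with the lowest level was Cox7a1, also a muscle isoform, with 3.05 to 37.0.

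The RNA came from whole marrow of C57BL/6 mice with leukemia. The donors of the leukemic cells carried the 36N variant of human GFI1 (GFI1 36N/36N, called 36N), the human gene expressed at 10 to 20% (GFI1 KD/KD, called KD) or the human gene at the mouse Gfi1 locus (GFI1 KI/KI, called 36S). GFI1 is a zinc finger repressor of transcription in blood cells. Lineage-depleted marrow cells were given the MLL-AF9 oncogene on a retrovirus that also carried GFP, and the sorted GFP+ cells were passed serially through irradiated mice up to quaternary recipients. There were 15 libraries in 5 groups of 3: 36N treated with temozolomide (TMZ), 36S treated with TMZ, and untreated 36N, KD and 36S. TMZ, an alkylating drug that methylates DNA, was applied at 50 µg/ml during the last 20 h. The untreated tables call 3 columns WT and not 36S. These were taken as 36S libraries 1, 2 and 3 by the library number in their names, which no other untreated group carries, and every untreated comparison rests on that. The donor leukemias behind each library, and whether the libraries of a group came from separate mice, are not given in the labels, so p-values measure the spread between these libraries only. Whole marrow can also hold cells of the irradiated host, and in such bulk samples fewer cells of a type and less RNA per cell cannot be told apart.

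Complex I and complex II take electrons from NADH and succinate and pass them through ubiquinone to complex III, which hands them to cytochrome c and on to complex IV, where oxygen is reduced. Complexes I, III and IV pump protons, and complex V uses the gradient to make ATP. Complex II is built from nuclear genes only, whereas the other complexes need subunits from both genomes, with the mitochondrial genes transcribed as long precursors and cut at tRNAs. Many acute myeloid leukemia cells are known to depend on oxidative phosphorylation.

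The nuclear members took up 0.525 to 0.833% of the summed signal of a library, and the 13 mitochondrial members took up 6.63 to 10.7%. In untreated cells the nuclear share was 0.615 ± 0.053% in 36N, 0.695 ± 0.107% in KD and 0.659 ± 0.071% in 36S (SD, n = 3 each). The mitochondrial share was 7.94 ± 0.14% in 36N, 9.46 ± 1.97% in KD and 7.96 ± 1.14% in 36S (SD, n = 3 each). The ranges of the untreated groups overlapped for both shares. The highest nuclear members of the untreated tables were Atp5b, Atp5a1 and Atp5c1, which encode the beta, alpha and gamma subunits of the catalytic head of ATP synthase. Per kilobase of transcript, in untreated 36S cells, the levels of the mitochondrial genes ranged from 170748 ± 32918 for mt-Atp6 down to 14525 ± 3970 for mt-Nd3, with mt-Nd6 next above it at 16831 ± 1507 (mean normalized signal per kilobase ± SD, n = 3). The last pair did not differ beyond its spread. A list of 12 markers of myeloid progenitors was listed in full in every table and had no gene at 0 in any library, with summed values of 52177 to 218223. The level of the GFI1 transcript, which would check the genotype labels, was not analysed here.

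**Figure D1:**
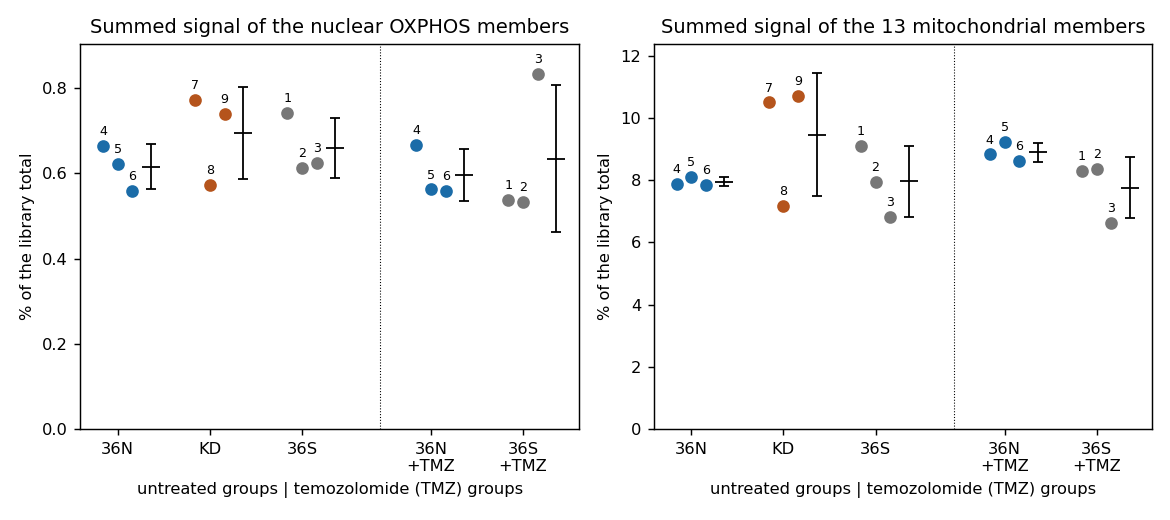
Percent of a library's summed normalized signal held by the nuclear members (left) and by the 13 mitochondrial members (right), with 1 point per library, its number beside it, and the group mean with its SD as a bar. Among untreated libraries KD 7 and 9 and 36S 1 stand high for both shares, and library 3 of 36S with TMZ has the highest nuclear share and the lowest mitochondrial share.

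Untreated 36N leukemias had slightly lower values than 36S leukemias for most members, and 1 member passed the test. This was Cox6b2, the testis isoform of a subunit on the outer face of complex IV, which lies on the minus strand of chromosome 7 at 4751792 to 4753094 (mm10). Cox6b2 had values of 563, 577 and 538 in 36N libraries, against 950.0, 729 and 783 in 36S libraries. All 3 values of 36N were below those of 36S. Cox6b2 fell by 0.54 on the log2 scale (SE 0.13, adjusted p = 0.0485, limma-trend on log2 of the value + 1, adjusted over 13137 genes). Its call was lost when any 1 library was left out, with adjusted p from 0.0844 to 0.133. By the same test 4.56% of all genes changed, against 1 of 91 members, or 1.1%. At an unadjusted p under 0.05 there were 7 members.

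In sum 71 of the 91 members had a negative log2 fold change, with a median of -0.10 for the nuclear and -0.09 for the mitochondrial members, against -0.01 for all genes tested. By complex the nuclear medians were -0.10 in complex I, -0.02 in II, -0.11 in III, -0.15 in IV and -0.09 in V, and all 8 nuclear members of complex III were negative. The groups did not overlap for 8 members, or 8.79%, against 26.9% of all genes. The 6 that were lower in every 36N library were Cox6b2, Cox7a1, Ndufa8, Ndufa13, Ndufb6 and Ndufs5, and the 2 that were higher were Sdhc and Cox7a2l. Ndufa8, an accessory subunit of complex I on the side of the intermembrane space, had values of 486, 465 and 361 in 36N libraries, against 598, 587 and 560.2 in 36S libraries, a log2 fold change of -0.42 (SE 0.14, adjusted p = 0.137). Sdhc, a membrane anchor of complex II, had values of 925, 937 and 857 in 36N libraries, against 833, 798 and 784 in 36S libraries (0.17, SE 0.10, adjusted p = 0.386). Cox7a2l, which helps complexes III and IV join into supercomplexes, had values of 1631, 1802 and 1488 in 36N libraries, against 1392, 1301 and 1356 in 36S libraries (0.28, SE 0.11, adjusted p = 0.195). These 3 differences did not pass the test.

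The members of lowest p in the other nuclear complexes were Uqcrb, a small subunit of complex III, with a log2 fold change of -0.24, and Atp5g1, a gene for the rotor ring of complex V, with -0.39 (adjusted p = 0.388 and 0.283 by limma). Among the mitochondrial genes mt-Nd3 had the lowest p, with values of 4197, 3709 and 3119.9 in 36N libraries, against 6634, 4456 and 4074 in 36S libraries (-0.44, adjusted p = 0.231 by limma). Its groups overlapped, and the remaining mitochondrial genes ranged from -0.26 for mt-Atp8 to 0.20 for mt-Nd6. The other members of complex II had log2 fold changes of -0.10 for Sdha, 0.04 for Sdhb and -0.09 for Sdhd.

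The small shift between 36N and 36S was not seen without library 1 of 36S, which is singled out here by the values of the members themselves. This library was the highest of its group for 71 of 78 nuclear members (91%) and for all 13 mitochondrial members, whereas it was the highest for 38% of all genes tested. Its median nuclear member lay 0.22 above the group mean on the log2 scale. Without it the median log2 fold change was 0.03 for nuclear and 0.06 for mitochondrial members, which describes the other libraries and is no separate test. In the 36N group library 6 was the lowest for 61 of 78 nuclear members (78.2%, against 39% of all genes tested). It lay below every 36S library for 46 of the 78 (59%, against 36.7% of all genes tested). The 9 late neutrophil markers summed to 66523 in 36S library 1, against 9722 and 5620.0 in the other 36S libraries and 14205, 10471 and 19848 in the 36N libraries, and their part in the shift was not tested. The summed myeloid progenitor markers were 59763, 57794 and 52177 in 36N libraries, against 150536, 111322 and 79721 in 36S libraries. The list did not move as 1, with 6 of the 12 log2 fold changes positive and 6 negative. By limma 1 marker rose, Flt3 by 1.94, and 3 fell, Elane, Kit and Mpo (33.3% called, against 4.56% of all genes).

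**Figure D2:**
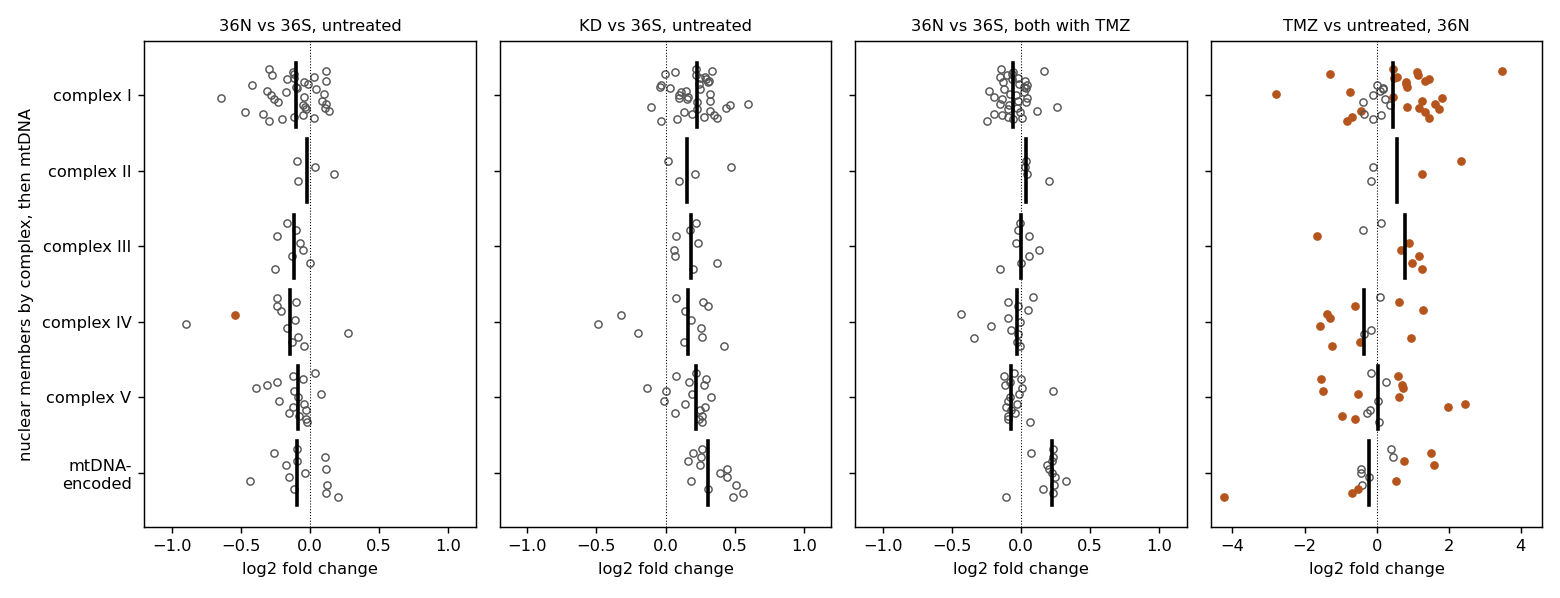
Log2 fold change of each member in the 4 comparisons, 1 point per gene, for the nuclear members of complexes I to V and the mitochondrially encoded genes (mtDNA), with filled points for adjusted p under 0.05 by limma-trend and a bar at the median of each set. The fourth panel has a wider axis and leaves out Cox6c2 at 8.25, which was listed at 0 in untreated cells. Points sit left of 0 for most sets in untreated 36N, right of 0 in KD, and on both sides with TMZ.

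KD leukemias had higher values than 36S leukemias for 81 of 91 members, but no member passed the test. The median log2 fold change was 0.22 for nuclear and 0.31 for mitochondrial members, against -0.01 for all genes tested, and all 13 mitochondrial genes were positive. limma called 0 of 91 members, against 11.5% of all genes, and 6 members had an unadjusted p under 0.05. The groups did not overlap for 3 members (3.3%), against 31.5% of all genes. Values of 36N and KD were set against the same 36S libraries, so their comparisons are not independent.

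The 3 members without overlap were all higher in KD. Sdhb, the iron-sulfur subunit of complex II, had values of 1214, 961 and 1250.0 in KD libraries, against 892, 752 and 809.6 in 36S libraries (log2 fold change 0.47, SE 0.15, adjusted p = 0.068 by limma). Ndufc1, a small accessory subunit of complex I, had values of 371, 269 and 389 in KD libraries, against 220.5, 197 and 257 in 36S libraries (0.60, adjusted p = 0.0775). The third was mt-Nd6, a core membrane subunit of complex I, with values of 13261, 10182 and 13592 in KD libraries, against 9498, 8773 and 7935 in 36S libraries (0.49, adjusted p = 0.0947). In all 3 genes KD library 8 had the lowest value of its group, just above the highest 36S library. Other members of lowest p in their complex were Uqcrh, the hinge subunit of complex III (0.37, adjusted p = 0.195), Cox8a, the general isoform of a small complex IV subunit (0.42, adjusted p = 0.268), and Atp5h, a subunit of the stalk of complex V (0.33, adjusted p = 0.333).

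The mitochondrial genes ran from 0.16 for mt-Co2 to 0.56 for mt-Nd5 in KD, and the complex I genes among them had a median of 0.44, against 0.25 for those of complex IV. mt-Nd5 had values of 155002, 96304 and 161852 in KD libraries, against 111493, 87855 and 77126 in 36S libraries. In complex II Sdha had 0.02, Sdhc 0.21 and Sdhd 0.10 on the log2 scale. The tissue isoforms went the other way, with -0.49 for Cox7a1 and -0.32 for Cox6b2, and neither passed the test.

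KD library 8 stood apart from libraries 7 and 9. It was the lowest of the KD group for 74 of 78 nuclear members (94.9%) and for all 13 mitochondrial members, against 40.3% of all genes tested. Library 7 was above every 36S library for 63 nuclear and 13 mitochondrial members and library 9 for 54 and 13, whereas library 8 was below every 36S library for 41 nuclear and 6 mitochondrial members. On the log2 scale the median nuclear member lay at 0.41 in library 7, -0.20 in library 8 and 0.39 in library 9, relative to the 36S mean. The median mitochondrial member lay at 0.59, -0.22 and 0.64 in these libraries. Genes for mitochondrial ribosomal proteins, which are encoded in the nuclear genome, had medians of 0.21, -0.32 and 0.16. Other protein-coding genes with short transcripts, under 1000 bases, had medians of 0.09, -0.06 and 0.08.

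Leaving out each library in turn was planned, but library 8 is singled out here by the values of the members themselves, so the counts without it describe libraries 7 and 9 and are no separate test of a rise. Without KD library 8, 14 of 91 members passed the test and all were higher in KD, which is 15.4% of members against 16% of 12839 genes. Among them were mt-Nd6, mt-Nd5, mt-Nd4, mt-Nd2, Ndufs8, Ndufa6, Ndufc1, Ndufc2, Sdhb, Uqcrh, Cox8a, Cox5b and Atp5c1. The share of members called was close to that of all genes, while the median log2 fold change was 0.40 for nuclear and 0.61 for mitochondrial members and 88 of 91 were positive. Among the cell type markers 8 of 12 monocyte and macrophage genes tested rose in KD (66.7%, against 11.5% of all genes), and the 13 genes of that list summed to 115341, 91884 and 146973 in KD libraries, against 49041, 44696 and 50638 in 36S libraries. The 11 T and NK cell genes summed to 234, 616 and 771 in KD libraries, against 210.1, 131 and 119 in 36S libraries, with 4 of 9 tested higher. The eosinophil genes summed to 2503, 935 and 1321 in KD libraries, against 444, 246 and 249 in 36S libraries, with 2 of 5 tested higher. Of 4 mast cell and basophil genes Cpa3 rose by 2.69 and Ms4a2 fell by 3.20 on the log2 scale, and of 8 B and plasma cell genes Igkc and Jchain each fell by 2.65. Of 9 late neutrophil genes 1 rose and 2 fell, and of 6 endothelial and stromal genes 2 rose and 1 fell. Ms4a2 and Cdh5, the endothelial gene that fell, averaged 1.58 and 6.28 in KD and passed the filter only through their 36S values. Library 8 was the lowest KD library for the monocyte list. Of 12 myeloid progenitor markers 3 rose and 4 fell, and they summed to 53247 to 61100 in KD libraries, against 79721 to 150536 in 36S libraries. The part of these cells in the values of the members was not tested.

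**Figure D3:**
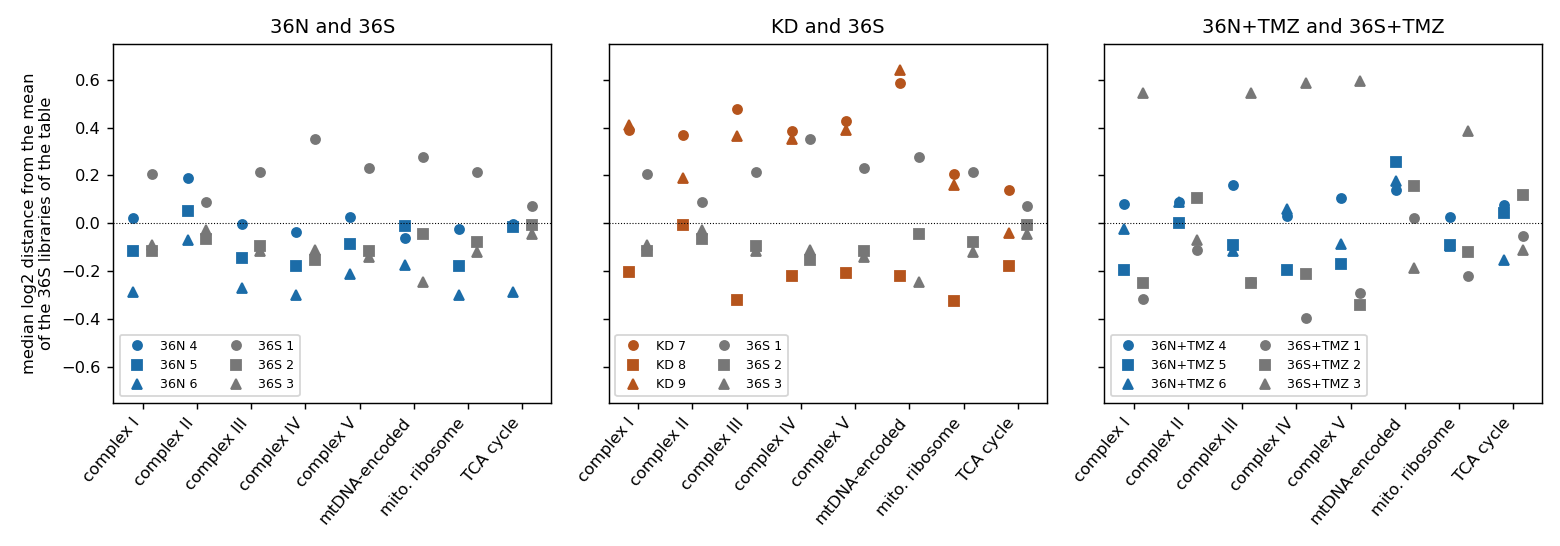
Median distance of the genes of a set from the mean of the 36S libraries of the same table, on the log2 scale, 1 symbol per library, for nuclear members by complex, mitochondrially encoded members, mitochondrial ribosomal proteins and the tricarboxylic acid (TCA) cycle. KD library 8 lies below KD 7 and 9 in every set, 36S library 1 is the highest 36S library in each, and 36S library 3 with TMZ is high for the nuclear sets of complexes I, III, IV and V and low for the mitochondrial one.

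The promoters of the nuclear genes that lead these comparisons are shown because the nuclear members of a library moved together across complexes. They are RefSeq windows of GRCm38.p6, from 250 bases before to 50 bases after the start of the gene, written 5′ to 3′ on the strand of the gene, with motif matches in capitals. Cox6b2 is chr7:4753045-4753344 on the minus strand, Sdhb chr4:140961021-140961320 on the plus strand and Ndufc1 chr3:51408906-51409205 on the minus strand.
Cox6b2: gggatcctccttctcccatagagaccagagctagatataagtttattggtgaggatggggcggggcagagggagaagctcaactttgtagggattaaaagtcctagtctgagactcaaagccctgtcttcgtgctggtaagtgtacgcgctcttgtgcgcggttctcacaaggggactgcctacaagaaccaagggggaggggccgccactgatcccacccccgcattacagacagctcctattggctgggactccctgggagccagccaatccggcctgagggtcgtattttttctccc
Sdhb: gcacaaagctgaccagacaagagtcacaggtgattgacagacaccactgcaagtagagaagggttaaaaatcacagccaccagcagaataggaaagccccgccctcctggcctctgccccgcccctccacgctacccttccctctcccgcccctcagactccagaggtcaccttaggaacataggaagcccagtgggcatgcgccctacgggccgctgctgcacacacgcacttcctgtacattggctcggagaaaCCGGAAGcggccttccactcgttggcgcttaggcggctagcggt
Ndufc1: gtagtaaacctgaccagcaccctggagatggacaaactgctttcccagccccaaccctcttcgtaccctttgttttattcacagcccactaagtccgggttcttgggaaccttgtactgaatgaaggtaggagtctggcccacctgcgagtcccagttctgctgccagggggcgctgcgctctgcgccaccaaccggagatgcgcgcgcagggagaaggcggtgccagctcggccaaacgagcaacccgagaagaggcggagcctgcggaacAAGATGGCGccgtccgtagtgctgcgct
The motifs searched on both strands were GCGCANGCG (NRF1), CCGGAAG (ETS factors such as GABP), AAGATGGCG (YY1) and AAGGTCA (estrogen-related receptors), and matches of different motifs could overlap. The Sdhb window holds the ETS letters and the Ndufc1 window the YY1 letters, while the Cox6b2 window holds none of the 4. Windows were found for 66 members. NRF1 letters were in 19 of them (28.8%, against 6.47% of 27025 promoters), ETS letters in 16 (24.2%, against 9.12%), YY1 letters in 6 (9.09%, against 1.49%) and the estrogen-related receptor letters in 8 (12.1%, against 4.66%). The 27025 promoters were not limited to genes that passed the filter. A match is a description of the sequence and does not show binding. The part of promoter sequence in the values of the members was not tested.

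The other genes of the pathway were taken from fixed lists. Surf1, an assembly factor of complex IV, rose in both untreated comparisons, with a mean of 269 ± 7.01 in 36N, 310.2 ± 65.2 in KD and 160 ± 7.89 in 36S (SD, n = 3 each). Its log2 fold change was 0.75 in 36N (adjusted p = 0.0227) and 0.93 in KD (adjusted p = 0.0153, both by limma), and it was the sole assembly factor of 44 that passed in either. That is 2.27% of the list, against 4.56% of all genes in 36N and 11.5% in KD. Of 78 mitochondrial ribosomal protein genes 0 passed in 36N and 0 in KD by limma, with 6 at an unadjusted p under 0.05 in each and medians of -0.19 and 0.03. Of 19 tricarboxylic acid cycle genes 0 passed in either comparison by limma, with 2 in 36N and 0 in KD at an unadjusted p under 0.05, and the same held for 22 carriers and subunits outside the naming rule, with 1 in each.

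Among regulators of mitochondrial biogenesis Nrip1, a corepressor of nuclear receptors, averaged 1386 ± 45.1 in 36N, 1872 ± 477 in KD and 597 ± 104 in 36S (SD, n = 3 each). It rose by 1.23 on the log2 scale in 36N (adjusted p = 0.0025) and by 1.63 in KD (adjusted p = 0.00136). In KD Tfeb, a regulator of lysosome genes, rose by 0.76 and Pprc1, a coactivator related to PGC-1, fell by 0.78 on the log2 scale (adjusted p = 0.0459 and 0.0251 by limma). The called regulators were 23.1% of 13 in KD, against 11.5% of all genes, and 7.69% in 36N, against 4.56%. Of the genes for defence against reactive oxygen and for uncoupling, Prdx5, a peroxiredoxin, rose by 0.78 and Ucp2, an inner membrane carrier, by 0.64 in KD. They were 2 of 11 tested (18.2%, against 11.5% of all genes). Of 26 genes that maintain or express mitochondrial DNA, Polg, the mitochondrial DNA polymerase, fell by 0.79 and Elac2, which cuts the 3′ ends of mitochondrial tRNAs, fell by 0.54 in KD. These were the 2 called (7.69%), below the 11.5% of all genes.

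TMZ treatment of 36N cells came with changes in both directions, also among subunits of the same complex. Of 92 members 62 passed the test (67.4%, against 69.7% of all 14390 genes). There were 41 that rose (44.6%, against 36.3% of all genes) and 21 that fell (22.8%, against 33.5%), and with every library scaled to the same total the split was 36 to 29. The 41 include Cox6c2, counted in complex IV, which was at 0 in untreated cells. It passed the filter only through its TMZ values, so its direction was set by the filter. Complex I had 20 nuclear members higher and 6 lower of 37, with a median log2 fold change of 0.46, and complex III had 5 higher and 1 lower of 8, with 0.79. Complex II had 2 higher and 0 lower of 4, complex IV 4 higher and 6 lower of 13, with -0.35, and complex V 6 higher and 5 lower of 17, with 0.03. The median of all genes was 0.06. Differences between complexes were not tested, and the higher values of complex I were not seen when the same libraries were read from other tables, as given further on. The median nuclear member lay at 0.37, 0.08 and 0.22 in the 3 TMZ libraries relative to the untreated mean, and other protein-coding genes with transcripts under 1000 bases lay at 0.33, 0.30 and 0.33. Values did not overlap between groups for 69 members (75%), against 74.5% of all genes, so the number of changed members was near the background.

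Among nuclear genes that rose, Ndufa10, an accessory subunit of complex I, had values of 4634, 4643 and 4269.5 with TMZ, against 545, 424 and 288 in untreated 36N cells (log2 fold change 3.47, adjusted p = 9.63e-06). Sdha, the flavoprotein of complex II, had 6234, 5904 and 6416 with TMZ, against 1035, 1391 and 1249 in untreated cells (2.34, adjusted p = 5.89e-06). In complex II Sdhc also rose, by 1.25, whereas Sdhb had -0.11 and Sdhd -0.15 and did not pass. The other large increases were Atp5j (2.45) and Atp5j2 (1.99) of the stalk and membrane part of complex V and Ndufb6 (1.81), Ndufs3 (1.74) and Ndufc1 (1.63) of complex I.

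Among nuclear genes that fell, Ndufb4, an accessory subunit of complex I, had values of 108, 78.2 and 116 with TMZ, against 749, 659.7 and 685 in untreated cells, and it fell by 2.80 on the log2 scale (adjusted p = 1.73e-05). Cox6b2 fell by 1.39, with 275, 288 and 243 with TMZ, against 708, 725 and 679.8 in untreated cells. The other large decreases on the log2 scale were Uqcrb (-1.64), Cox7a1 (-1.58), Atp5c1 (-1.55), Atp5g1 (-1.48), Ndufa12 (-1.30), Cox6c (-1.30) and Cox8a (-1.23). Cox7a1 is low, at 3.05 to 12.3 with TMZ and 15.9 to 24.1 without, and its call was lost when 36N library 4 or 6 or TMZ library 4 or 5 was left out, with adjusted p from 0.0574 to 0.0792.

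Several of these genes have processed copies elsewhere in the genome that share nearly all of their coding sequence. Coding sequences of 25 of 92 members had a copy of at least 95% identity that the tables also list. Of these 18 were nuclear and 7 mitochondrial. The mitochondrial ones were mt-Atp6, mt-Co1, mt-Co2, mt-Nd3, mt-Nd4, mt-Nd4l and mt-Nd5, and their listed copies are annotated as unprocessed, except that of mt-Nd5. Ndufb4 and its copy Ndufb4c, itself taken by the rule, are identical over 387 bases. Ndufb4c had 257, 279.7 and 271 with TMZ, against 294, 258 and 314 in untreated cells, and the sum of the pair was 365, 358 and 387 with TMZ, against 1043, 917 and 999 in untreated cells. Cox6c, a small complex IV subunit, and Cox6c2 are 96.9% identical over 228 bases, and the first 60 coding bases are shown with the differences in capitals.
Cox6c: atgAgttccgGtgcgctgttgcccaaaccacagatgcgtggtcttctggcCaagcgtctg
Cox6c2: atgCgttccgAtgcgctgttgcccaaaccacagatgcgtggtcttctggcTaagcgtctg
Cox6c2 was listed at 0 in all 3 untreated libraries and had 309.7, 278 and 326 with TMZ. The sum of Cox6c and Cox6c2 was 1533, 1358 and 1615 with TMZ, against 3079, 2772 and 2964 in untreated cells. How the authors' counting shared reads between such copies is not given in the sources used here. Atp5g1, Uqcrb and Ndufa12 have listed copies of 97.9% identity or more as well.

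The mitochondrially encoded genes split with TMZ, although 12 of them are transcribed from the same strand. mt-Co3, a core subunit of complex IV, had values of 168530, 176800 and 171623 with TMZ, against 57173, 60672 and 53037 in untreated 36N cells, a log2 fold change of 1.60 (SE 0.19, adjusted p = 0.0002). mt-Atp8 rose by 1.50, mt-Co2 by 0.77 and mt-Nd3 by 0.53, whereas mt-Nd5 fell by 0.69 and mt-Nd4l by 0.51 on the log2 scale. mt-Co1 had 0.45, mt-Atp6 0.41, mt-Nd2 -0.20, mt-Nd4 -0.40, mt-Cytb -0.42 and mt-Nd1 -0.44, and none of these passed the test. Within this table the 5 genes of complexes IV and V were thus all positive, and 6 of the 7 complex I genes were negative. Read from other tables, as given further on, mt-Atp8 had -0.78, so 1 of the 2 complex V genes was positive. The 3 complex IV genes stayed positive and 6 of 7 complex I genes negative.

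mt-Nd6 changed most among the mitochondrial genes. It is the gene of the opposite strand and encodes a core membrane subunit of complex I, at 13552 to 14070 on the minus strand of the mitochondrial chromosome, and its last 14 coding bases overlap the end of mt-Nd5, in capitals here, each written on its own strand.
mt-Nd6: tatcgagaTTACTCGAGATTAA
mt-Nd5: atactcaaTTAATCTCGAGTAA
mt-Nd6 had values of 1084, 1295 and 884 with TMZ, against 17212, 21494 and 22830.2 in untreated 36N cells, and it fell by 4.24 on the log2 scale (SE 0.17, adjusted p = 1.83e-06 by limma). Set against mt-Cytb of the same library, mt-Nd6 stood at 1.10, 1.17 and 0.852% with TMZ and at 12.5, 15.5 and 15.9% in untreated cells. The groups were far apart.

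The same ratio was low in every TMZ library of the other TMZ table, with 1.40, 1.49 and 1.09% in 36N and 1.58, 1.77 and 1.55% in 36S. In the untreated tables it was 8.17, 10.1 and 10.3% in 36N, 9.08, 9.20 and 9.45% in KD and 8.07, 9.07 and 9.82% in 36S. The 36N libraries here, with and without TMZ, are the same libraries as in the table of 36N cells above. The tables were normalized separately, and their values differ by a factor that depends on the gene, as given further on. These levels are therefore set side by side and not tested, and no table used here holds 36S cells with and without TMZ. The libraries were made after poly(A) selection, and the human ND6 mRNA is known to lack a poly(A) tail. Whether TMZ and untreated libraries were prepared together is not given in the labels, so drug, culture and library preparation cannot be told apart.

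**Figure D4:**
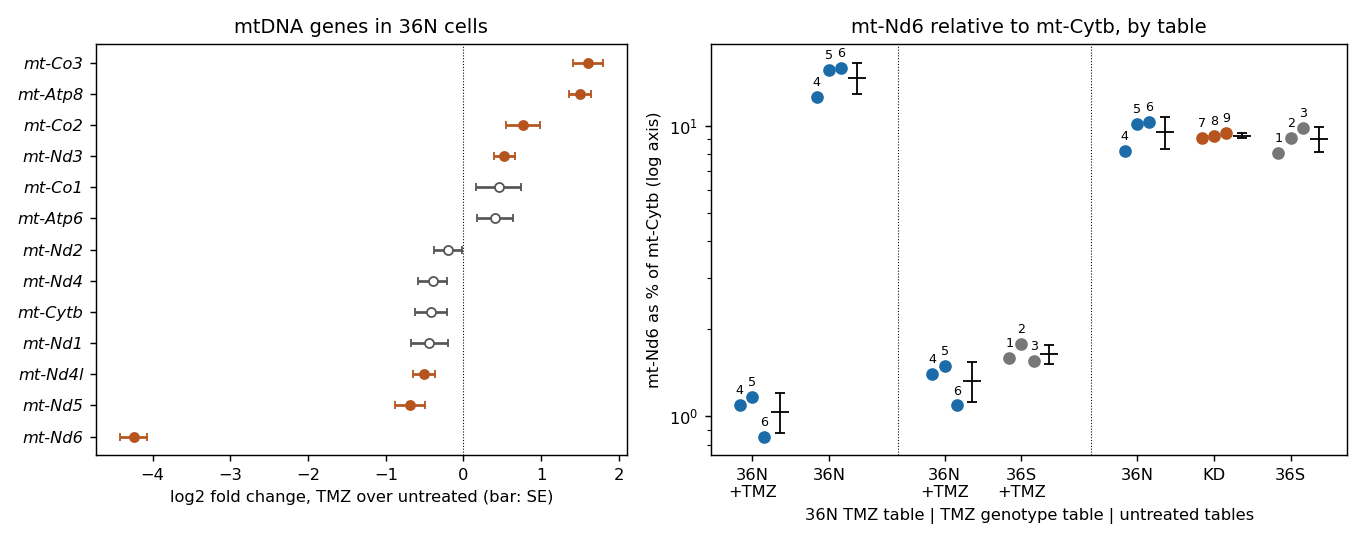
Left, log2 fold change of the 13 mitochondrial genes with TMZ in 36N cells, with SE bars and filled points for adjusted p under 0.05 by limma-trend. Right, mt-Nd6 as a percent of mt-Cytb in each library on a log axis, by table and group, with the group mean and SD. All 9 values of TMZ columns lie between 0.852 and 1.77%, and all values of untreated columns lie between 8.07 and 15.9%.

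The 36N libraries, untreated and with TMZ, each stand in 2 of the tables, and their values differ between tables by a factor that depends on the gene. Over 10084 genes with a mean of at least 50, this factor had an SD of 0.35 between genes on the log2 scale in untreated libraries, while it varied within a gene over libraries by a median SD of 0.0043. The TMZ difference was therefore read a second time, from the TMZ genotype table and the untreated 36N table, relative to the median of all genes. Of 59 called members 51 had the same sign in both readings and 8 did not. The median nuclear member had 0.18 within the TMZ table and -0.10 across tables, so the direction of the nuclear set depends on the table. For the 37 nuclear members of complex I the median was -0.08 across tables, with 18 positive and 19 negative. Across tables complex III had 0.34 with 5 of 8 positive, complex IV -0.91 with 2 of 11 positive and complex V -0.26 with 7 of 16 positive. The median mitochondrial member had -0.23 and -0.39.

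Some of the large changes kept their direction and were past 1 on the log2 scale in both readings. Across tables, relative to all genes, mt-Nd6 had -3.41, Ndufb4 -3.22, Cox6b2 -1.90, Atp5g1 -1.53, Uqcrb -1.31, Atp5c1 -1.29 and Cox8a -1.13. Among the increases mt-Co3 had 1.84, Ndufb6 2.09 and Ndufs3 1.13. Other increases were small or absent across tables, with 0.05 for Ndufa10, 0.38 for Atp5j and 0.84 for Sdha. The 8 genes whose sign differed were Ndufa3, Ndufa5, Ndufa6, Ndufc1, Sdhc, Cox5b, Cox6b1 and mt-Atp8, all of them higher with TMZ within the table, and mt-Atp8 had -0.78 across tables. What made the factors was not tested.

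**Figure D5:**
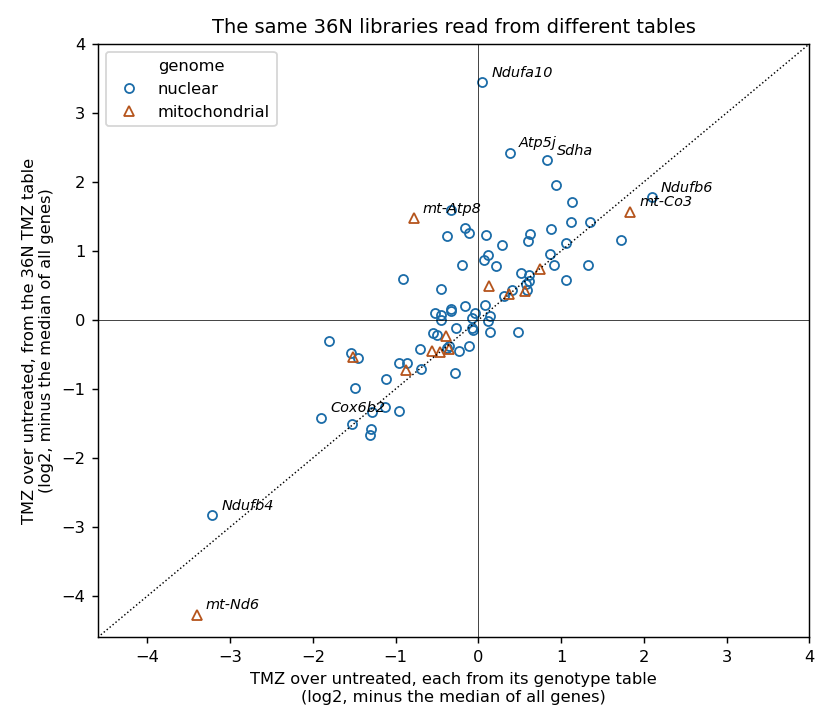
TMZ over untreated difference of 89 members in 36N cells, read across tables (horizontal) and within the TMZ table (vertical), both on the log2 scale minus the median of all genes, with circles for nuclear and triangles for mitochondrial genes and a dotted line of equal values. mt-Nd6 and Ndufb4 are low on both axes and mt-Co3 and Ndufb6 high on both, while Ndufa10 is at 0.05 across tables and far above 0 within the table.

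The lists of other mitochondrial genes also changed in both directions with TMZ, with 27.3 to 68.2% of a list called, below the 69.7% of all genes in every list, of which 36.3% were higher and 33.5% lower. Of 78 mitochondrial ribosomal protein genes 34 rose and 9 fell, of 44 assembly factors 17 rose and 9 fell, and of 19 tricarboxylic acid cycle genes 8 rose and 3 fell. Of 22 carriers and other subunits 11 rose and 4 fell. Cycs, which encodes cytochrome c, the carrier between complexes III and IV, averaged 292 ± 28.1 with TMZ and 1803 ± 245 in untreated cells and fell by 2.62 on the log2 scale, while Cyc1, the cytochrome c1 of complex III, averaged 1867 ± 109 with TMZ and 373 ± 52.4 in untreated cells and rose by 2.33 (SD, n = 3 each). Across tables, relative to all genes, Cycs had -1.87 and Cyc1 1.30. Coq9, of ubiquinone synthesis, rose by 3.00, and Mdh2 and Dlat of the cycle rose by 1.89 and 1.29. Across tables Coq9 had 1.22, Mdh2 1.03 and Dlat 0.55.

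Of the genes that maintain or express mitochondrial DNA 8 of 26 rose and 6 fell (53.8%, against 69.7% of all genes). Polg rose by 4.11, Polrmt, the mitochondrial RNA polymerase, rose by 1.65, and Mtpap, the mitochondrial poly(A) polymerase, fell by 1.66 on the log2 scale, with 1.80, 1.31 and -0.83 across tables. Mtpap averaged 306 ± 20.4 with TMZ and 970.0 ± 109 in untreated cells (SD, n = 3 each). Of the regulators 2 of 13 rose and 6 fell (61.5%), among them Esrra, an estrogen-related receptor, which rose by 1.39, and Gabpb2, a subunit of the ETS factor GABP, which fell by 1.29. Across tables Esrra had 1.04 and Gabpb2 -0.43. Nrip1 also fell, with 575 ± 38.7 with TMZ and 2305 ± 74.9 in untreated cells (SD, n = 3 each), and had -1.61 across tables. Gpx4 (3.71), Txnrd2 (2.55) and Prdx3 (0.47) were the genes of reactive oxygen defence that rose, with 0 of 11 lower. Their values across tables were 0.92, 0.94 and 0.94. The largest ribosomal protein changes by p were Mrpl18 (3.30), Mrpl2 (3.51) and Mrpl23 (-2.75), and those of the assembly factors were Cox19 (2.38), Cox17 (1.50) and Cox20 (-1.84). Across tables, relative to all genes, Mrpl18 had 0.15, Mrpl2 0.73 and Mrpl23 -1.69. Cox19 had 1.21, Cox17 0.26 and Cox20 -1.51 in that reading. For 15 of the 120 called genes of these lists the sign relative to all genes differed across tables.

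Markers of other cell types differed between the TMZ and untreated libraries. All 10 mast cell and basophil genes rose, and their sum was 104379 to 293308 with TMZ and 211 to 782 in untreated cells, where 3 or 4 of them were at 0. All 7 megakaryocyte genes rose, with sums of 30460 to 58534 with TMZ and 207 to 423 in untreated cells. Of 7 B cell genes tested 6 fell, and of 13 monocyte genes 5 rose and 4 fell, which is 69.2% of that list against 69.7% of all genes. Of 5 eosinophil genes tested 4 rose, and of 8 erythroid genes 3 rose. The T and NK cell genes summed to 6368 to 9043 with TMZ and 243 to 369 in untreated cells, with 2 of 8 higher and 5 lower. The sum of the 12 myeloid progenitor markers was 74299 to 94651 with TMZ and 77445 to 85799 in untreated cells, with 2 higher and 8 lower. Some marker genes, such as Fcer1a and Ppbp without TMZ and Cd3e and Jchain with it, were below 10 in every library of 1 group. They passed the filter only through the other group, so their direction was set by the filter. The part of these cells in the changes of the members was not tested.

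With TMZ in both groups, 36N and 36S leukemias did not differ for any member by the test. limma called 0 of 92 members and 0% of 14246 genes, and 0 members had an unadjusted p under 0.05. The median log2 fold change was -0.03 for nuclear members and 0.23 for mitochondrial ones, of which 12 of 13 were positive, against 0.01 for all genes. Groups did not overlap for 4 members (4.35%), against 4.76% of all genes. Sdhd, mt-Co1 and mt-Co2 were higher in every 36N library, with log2 fold changes of 0.20, 0.23 and 0.23. Cox6b2 was lower in every 36N library, with 315, 327 and 272 in 36N with TMZ, against 386, 362 and 497 in 36S with TMZ (-0.43). Every 36N value of Cox6b2 was thus below every 36S value both with the drug and without it. The same library numbers stand in both comparisons, so they are not taken as independent. The share of all genes with this pattern was not counted. The members of lowest p in the other complexes were Ndufs1 (0.26), Uqcrc2 (0.13), Atp5g2 (0.23) and mt-Nd3 (0.33), and mt-Nd6 had -0.11.

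In library 3 of 36S with TMZ the nuclear and mitochondrial members stood apart in opposite directions. It was the highest of its group for 72 of 79 nuclear members (91.1%) and the lowest for all 13 mitochondrial members, against 35.9 and 41.3% of all genes tested. Sdhb had 1744, 1569.9 and 1596 in the 36N libraries with TMZ, against 1310.5, 1310.4 and 2396 in 36S libraries 1, 2 and 3 with TMZ. The median nuclear member of library 3 lay 0.58 above the group mean on the log2 scale and the median mitochondrial member at -0.19, while the mitochondrial ribosomal proteins lay at 0.39 and the tricarboxylic acid cycle genes at -0.11. Without it the median log2 fold change of 36N over 36S was 0.25 for nuclear and 0.08 for mitochondrial members. Library 3 is singled out here by the values of the members themselves, so the medians without it are no separate test.

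The genotype difference was not found to depend on the drug for any member. In a limma fit of all 4 groups with an intercept for each table, 0 of 91 members passed for the difference between the 36N effect with TMZ and without it, against 0.333% of 12324 genes. The lowest adjusted p was 0.603, for mt-Nd3 with 0.76 on the log2 scale, and 1 member had an unadjusted p under 0.05. A p above the threshold does not show that the effects were equal.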

How the data were processed

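Values are the normalized signal per gene that the authors deposited in 4 tables (normalized counts). Salmon, DESeq2 and mm10 are named, per the submitters' processing notes, without versions or settings. Column totals ran from 11.3 to 24.3 in units of 1e6. After undoing the best scale factor, 26.8 to 57.9% of low values were whole within 0.1, so reads were not recovered and depth is unknown. log2(value + 1) was tested with limma-trend (limma 3.58.1, R 4.3.3) within a table, for genes with at least 10 in 3 or more libraries, with Benjamini-Hochberg adjustment over all genes tested and a threshold of 0.05. The fold scale understates changes of low genes. Code was tested on simulated data. Coordinates came from GENCODE M21, promoters from RefSeq, copies from BLAST 2.17.0. Named were all called members of a direction if 20 or fewer, otherwise the 10 largest, plus the lowest p of each complex, all mitochondrial and complex II genes and tissue isoforms, and up to 3 genes of each other list; some genes are not reported here. Members without overlap were named after their values were seen. The members and lists were chosen with earlier results of these data known.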

Additional observations from a re-analysis of the deposited data

How the results depend on the processing

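Alternatives were pseudocounts of 0.5 and 5, no filter, a filter of 50, equal totals with and without the mitochondrial genes, quantile normalization, a replicate block and each library left out. Across them 163 values and counts that answer a comparison moved little and 15 moved. Cox6b2 was the sole member called in untreated 36N, and 0 members were called without the filter (adjusted p = 0.0549), with quantile normalization (0.0513) or with any library left out (0 to 0 members). In KD, leaving out a library gave 0 to 14 members, the 14 without library 8. For TMZ in 36N the nuclear median of 0.22 became 0.0716 with equal totals and 0.0765 with equal totals without the mitochondrial genes, and the mitochondrial median of -0.20 became -0.354 and -0.349, and -0.403 with quantile normalization. The equal totals moved the median of all genes to -0.09. For 36N against 36S with TMZ the mitochondrial median ranged from 0.0811 to 0.286 with a library left out, and the nuclear one from -0.196 to 0.248. In untreated 36N the nuclear median ranged from -0.194 to 0.026 and in KD from 0.103 to 0.404. Same-numbered 36N libraries had correlations of 0.019, 0.037 and 0.086, under the 0.1 required here to treat the numbers as pairs, which does not show that same-numbered libraries had separate origins. A replicate block gave 62 called members with TMZ, and 62 were called without it. Of the named genes 12 results lost and 5 gained a call, none reversed, and the cause of the moves was not tested. Depth is unknown, and groups of 3 libraries limit the precision.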
